A study of Drosophila melanogaster with 6 samples.

Results

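The genes described here are 32 Drosophila melanogaster genes that store, make, move and burn lipid, measured in whole larval intestines. They were chosen by their FlyBase symbols, with no measured value in the rule, and all 32 were matched among the 24278 entries of the count data, of which 17895 are genes. By role they fall into 6 lipases, 2 coat proteins of lipid droplets, 10 genes of fatty acid and triglyceride synthesis, 8 genes of beta-oxidation, 4 lipoprotein genes and 2 transcription factors. RNA-seq was run on 3 libraries of the EcRi genotype and 3 of the control genotype. By the crosses in the methods, larvae of both genotypes carried Tub-LexA with LexO-spok RNAi, which removes an enzyme of ecdysone synthesis, together with Tub-GAL80ts and UAS-EcR RNAi, a hairpin against the ecdysone receptor. Only EcRi also carried the enterocyte driver Myo1A-GAL4 by those crosses, which would leave the control with an undriven hairpin, whereas the control titles read myo1a-con, so the control genotype is not settled. Egg laying lasted 8 h, and animals spent 6 days at 18 °C and then 4 days at 29 °C, the temperature at which GAL80ts no longer blocks the drivers. The hairpin in EcRi is thus aimed at enterocytes, while all cell types of the gut gave RNA.

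In the larval midgut, dietary triglyceride is cut by secreted lipases, and enterocytes take up the fatty acids, rebuild triglyceride and either store it in droplets or load it onto lipoproteins for export into the haemolymph. Fatty acids are made from citrate-derived acetyl-CoA by ATP citrate lyase, acetyl-CoA carboxylase and fatty acid synthase, then desaturated, activated to acyl-CoA and esterified to glycerol. They are burned in mitochondria after import through the carnitine shuttle, and in peroxisomes through acyl-CoA oxidases.

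The libraries held between 200890663 and 246255664 counts. Levels are given as CPM, counts relative to the library total after scaling by TMM, edgeR's method for differences in composition, whose factors lay between 1.21 and 1.30 in EcRi and between 0.713 and 0.845 in control. Without TMM, with library totals alone, the median log2 fold change of all 12193 entries tested was 0.68, against 0.03 with TMM, a shift of 0.65 against which values without TMM are to be read. EcR itself was 29.9 ± 1.87 CPM in EcRi and 33.5 ± 10.5 CPM in control (mean ± SD, n = 3 each). Its log2 fold change was -0.17 (adjusted p = 0.517), and 0.47 without TMM, so every direction below is that of libraries labelled EcRi. The enterocyte marker list was detected in full, and 7 of its 9 genes fell, with a summed level of 12657 to 18522 CPM in EcRi and 47987 to 75324 CPM in control. Its structural member Myo31DF, also called Myo1A, had 642, 692 and 650.1 CPM in EcRi and 684, 660.2 and 720.3 CPM in control (log2 fold change -0.06, adjusted p = 0.655). The list member mex1 fell, at 241 ± 25.3 CPM in EcRi and 325 ± 8.42 CPM in control (log2 fold change -0.43, adjusted p = 0.00986, and 0.22 without TMM). In such bulk RNA, fewer cells of a type and less RNA per cell cannot be told apart, and the part of cell composition in the results was not tested. The sources do not say whether libraries of a genotype came from separate cultures, so p-values measure only the spread between these libraries.

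With edgeR's quasi-likelihood test and Benjamini-Hochberg adjustment over all entries tested, 26 of the 32 lipid genes differed between genotypes at an adjusted p below 0.05, against 59.5% of all entries tested. All 32 had passed the filter on low counts, with at least 90 counts in every library. Of the 32, 6 rose and 20 fell in EcRi, beside a background of 30.1% higher and 29.3% lower. Changes of more than a log2 fold change of 1 were seen in 3 genes that rose and 10 that fell, beside a background of 16.7% and 14.5%. The values of the genotypes did not overlap for 27 of the 32, beside 68.3% of all entries. The median log2 fold change of the lipid genes was -0.49, and 0.03 for all entries. Without TMM it was 0.17 and 0.68, and then 10 lipid genes were called higher and 10 lower, beside 57.3% and 12.7% of all entries. The genes together took 0.710 to 0.799% of all counts in EcRi and 1.48 to 1.78% in control. A set of 12 genes kept direction and call under every alternative tried, with Lip1, Mtp and whd higher and ACC, Acox57D-d, Acox57D-p, Acsl, Desat1, FASN1, Gpat4, Lsd-1 and mag lower. The alternatives include glmTreat, which asks whether a change exceeds a log2 size of 1 and so weighs against smaller changes, however precise. Hsl (0.84) lost its call there and under no other alternative, and LpR1 (0.86) lost its call there too. Absence from the set is thus not by itself a sign of a fragile call. The matching share of all entries is not given.

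**Figure D1:**
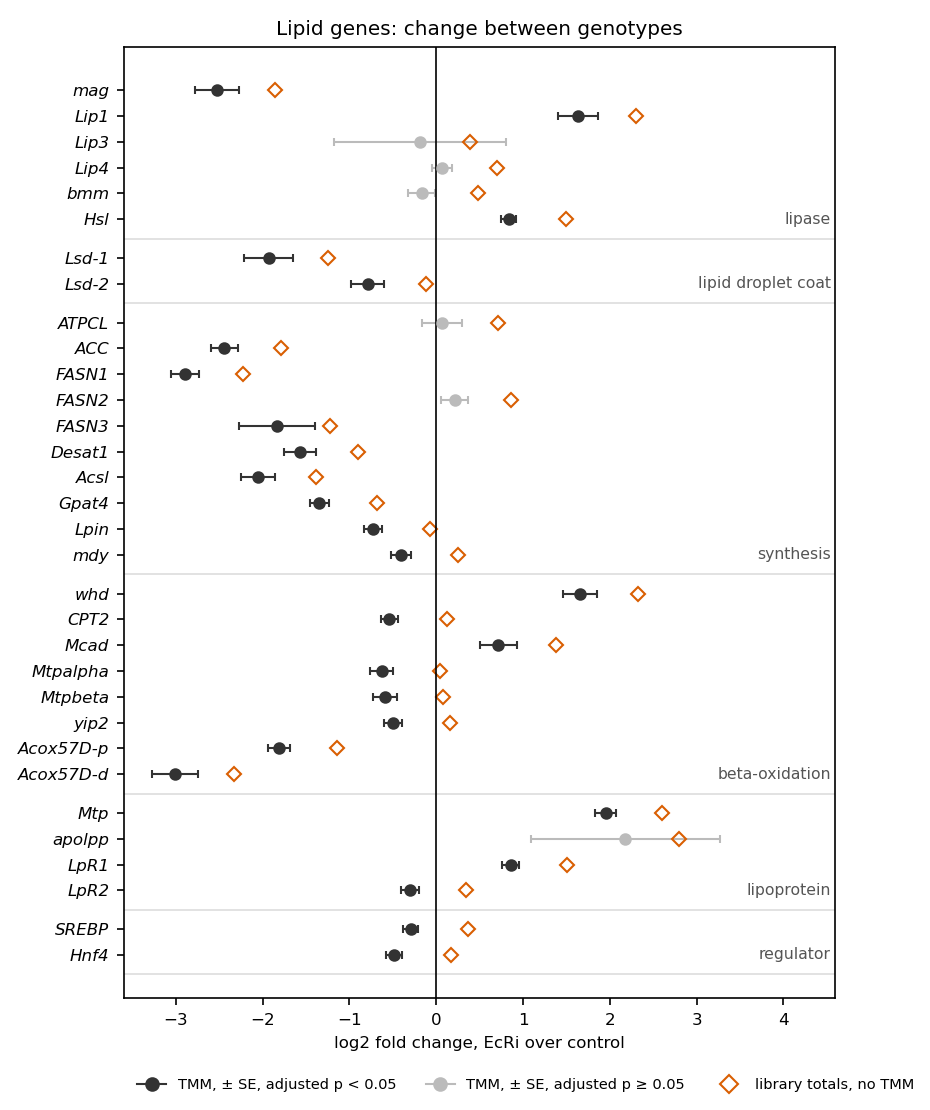
Log2 fold change of EcRi over control (x axis) for each of the 32 lipid genes (y axis), grouped by role; circles are TMM-scaled estimates with bars of ± 1 SE, black where the adjusted p was below 0.05 and grey where it was not, and open diamonds are estimates from library totals without TMM. The synthesis genes from ACC to Gpat4, other than FASN2, lie below -1, whereas whd, Lip1, Mtp and, in grey, apolpp lie above 1.5. The genes Lip3, bmm, mdy, CPT2, Mtpalpha, Mtpbeta, yip2, LpR2, SREBP and Hnf4 lie below 0 with TMM and above 0 without it.

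Among the lipases, the largest difference in abundance was that of mag (magro, FBgn0036996), a secreted digestive lipase that also cleaves cholesterol esters, on chromosome 3L from 20460683 to 20462274 of the BDGP6 genome. It had 2283, 1635 and 1774 CPM in EcRi libraries 1 to 3 and 9443, 8967 and 14417 CPM in control libraries 1 to 3. The genotypes lay far apart, and mag fell 5.77-fold in EcRi (log2 fold change -2.53, SE 0.25, adjusted p = 9.4e-05). As a share of all counts, which is the scaling by library totals without TMM, mag took 0.206 to 0.277% in EcRi and 0.758 to 1.03% in control. The log2 fold change was then -1.85. It was the most abundant of the 32 genes per kilobase of exon in both genotypes.

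None of the other 3 acid lipase genes was called lower. Lip1 (chromosome 2L from 10699408 to 10701544) had 2.45, 2.30 and 1.94 CPM in EcRi and 0.529, 0.725 and 0.893 CPM in control, and rose by a log2 fold change of 1.64 (SE 0.23, adjusted p = 0.000574), at a level that remained low in every library. Lip3, a lipase gene known in flies for its induction by starvation, had 13.0, 14.0 and 6.10 CPM in EcRi and 7.51, 28.4 and 1.65 CPM in control. Here the control libraries span the whole range of the EcRi libraries, and the log2 fold change of -0.18 (SE 0.99, adjusted p = 0.89) turned to 0.39 without TMM and to 1.26 without control replicate 2. A stretch of 7.46% of its exon bases is shared with CheA87a on the other strand, which was at most 0.120 CPM in any library. Lip4 had 44.4, 44.7 and 48.9 CPM in EcRi and 46.1, 49.2 and 36.8 CPM in control, with overlapping genotypes and a log2 fold change of 0.06 (adjusted p = 0.669), and 0.70 without TMM, close to the shift of all entries.

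Of the 2 lipases that act on stored fat, 1 rose. The gene bmm (brummer), whose product is the triglyceride lipase of lipid droplets, had 24.6, 20.7 and 31.6 CPM in EcRi and 28.2, 31.3 and 26.9 CPM in control. The genotypes overlapped, and its log2 fold change of -0.17 (SE 0.15, adjusted p = 0.378) became 0.48 without TMM. Hsl, the hormone-sensitive lipase, had 23.6, 22.7 and 23.9 CPM in EcRi and 14.0, 12.1 and 13.1 CPM in control, and rose 1.79-fold with no overlap (log2 fold change 0.84, SE 0.09, adjusted p = 0.000118). The ratio of Hsl to bmm per kilobase of exon within a library, which no scaling factor changes, was 0.607, 0.694 and 0.479 in EcRi and 0.315, 0.245 and 0.309 in control.

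The genes of both droplet coat proteins fell in the TMM-scaled data. Lsd-1 (perilipin 1, chromosome 3R from 23763857 to 23766662), through which lipolysis at the droplet surface is controlled, had 14.3, 12.9 and 22.2 CPM in EcRi and 62.8, 46.5 and 79.2 CPM in control. Its highest EcRi library lay below its lowest control library, and the fall was 3.82-fold (log2 fold change -1.93, SE 0.28, adjusted p = 0.00139). Lsd-2 (perilipin 2), which shields droplets from lipases, had 136, 126 and 187 CPM in EcRi and 235, 229.8 and 312 CPM in control, without overlap. Its log2 fold change was -0.79 (SE 0.19, adjusted p = 0.00799), and -0.12 without TMM, where it no longer passed the test. The ratio of Lsd-2 to Lsd-1 per kilobase was 4.04, 4.18 and 3.60 within the EcRi libraries and 1.59, 2.11 and 1.68 within the control libraries, so the coat transcripts changed unequally whatever the scaling.

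**Figure D2:**
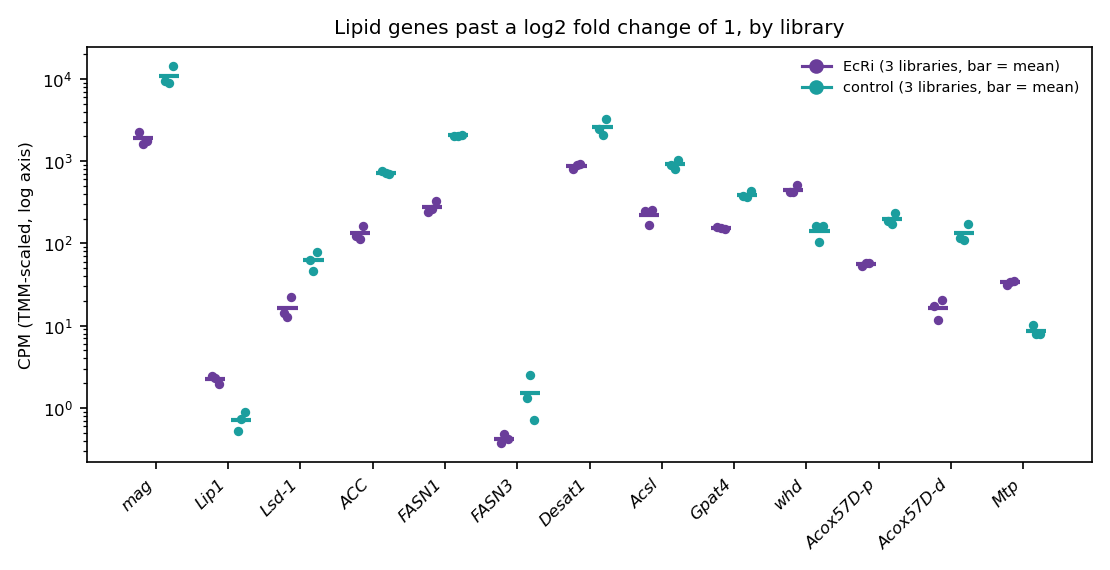
TMM-scaled CPM on a log axis (y) of the 13 lipid genes with an adjusted p below 0.05 and a log2 fold change of at least 1 in size (x), with 1 point per library, EcRi (purple) left of control (teal), and bars at the mean of 3 libraries. No gene shown has overlapping genotypes, mag spans 1635 to 14417 CPM, and FASN3 is the gene with the widest spread among control libraries, 0.703 to 2.51 CPM.

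Of the 10 synthesis genes, 8 fell and none rose, and their log2 fold changes had a median of -1.46 (-0.79 without TMM, where 6 were lower and 2 higher). Their summed level was 2175 ± 123 CPM in EcRi and 7332 ± 809 CPM in control. At the first step no difference passed the test. ATPCL, the ATP citrate lyase that supplies cytosolic acetyl-CoA, had 249.6, 425 and 226 CPM in EcRi and 303, 274 and 283 CPM in control. EcRi library 2 lay above and the other EcRi libraries below every control library, and the log2 fold change of 0.07 (SE 0.23, adjusted p = 0.83) was -0.27 without EcRi replicate 2 and 0.72, past the test, without TMM.

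ACC, acetyl-CoA carboxylase, makes malonyl-CoA in the committed step of fatty acid synthesis, and it had 124, 115 and 162 CPM in EcRi and 762, 710.2 and 703 CPM in control. It fell 5.43-fold (log2 fold change -2.44, SE 0.15, adjusted p = 1.2e-05). FASN1 (FBgn0283427, chromosome 2L from 3056598 to 3068177), the main fatty acid synthase, had 239, 258 and 332 CPM in EcRi and 2036, 2022 and 2101 CPM in control. The control libraries had a coefficient of variation of 2.05%, and FASN1 fell 7.43-fold (log2 fold change -2.89, SE 0.16, adjusted p = 8.0e-06). Against ATPCL of the same library, per kilobase, FASN1 was 0.476, 0.302 and 0.728 in EcRi and 3.33, 3.66 and 3.69 in control, and ACC was 0.238, 0.129 and 0.342 in EcRi and 1.20, 1.24 and 1.19 in control. Both were thus below ATPCL in every EcRi library and above it in every control library.

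The other fatty acid synthases were much less abundant. FASN2, which lies 454 bases upstream of FASN1 on the same strand and is known from oenocytes, had 2.19, 2.15 and 1.95 CPM in EcRi and 1.95, 1.59 and 1.89 CPM in control. The lowest EcRi library and the highest control library were nearly level, and the difference did not pass the test, with a log2 fold change of 0.21 (adjusted p = 0.267), and 0.87 without TMM, where it passed. FASN1 to FASN2 per kilobase was 102, 112 and 158 within EcRi libraries and 977, 1185 and 1038 within control libraries. FASN3, known from oenocytes for the waterproofing of larval tracheae, had 0.370, 0.478 and 0.418 CPM in EcRi and 1.32, 2.51 and 0.703 CPM in control and fell (log2 fold change -1.84, SE 0.44, adjusted p = 0.00893). Per kilobase of exon it was the lowest of the 32 genes in both genotypes, with 90 to 439 counts per library, and it lost its call when control replicate 1 and EcRi replicate 3 were both left out. Of the oenocyte markers, CG17562 was at 0 in all 6 libraries and Cyp4g1 was at or below 0.120 CPM. The remaining marker, FarO, was detected in every library, at 0.878 to 1.55 CPM in EcRi and 1.30 to 1.83 CPM in control. FarO made up nearly all of the list, which summed to 0.946 to 1.61 CPM in EcRi and 1.42 to 1.85 CPM in control.

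Desat1, the delta-9 desaturase that makes monounsaturated fatty acids, was the second most abundant of the 32 genes per kilobase in both genotypes. It had 811, 900.4 and 932 CPM in EcRi and 2493, 2096 and 3265 CPM in control and fell 2.97-fold (log2 fold change -1.57, SE 0.19, adjusted p = 0.000231). Acsl, a long-chain acyl-CoA synthetase that activates fatty acids for synthesis as well as for oxidation, had 245, 166 and 252 CPM in EcRi and 906, 803 and 1045 CPM in control. It fell 4.15-fold without overlap (log2 fold change -2.05, SE 0.19, adjusted p = 7.2e-05).

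All 3 triglyceride assembly genes fell in the TMM-scaled data. Gpat4, which attaches the first acyl chain to glycerol-3-phosphate, had 159.6, 154 and 148 CPM in EcRi and 377, 362 and 435 CPM in control (log2 fold change -1.35, SE 0.11, adjusted p = 3.3e-05). Lpin, the phosphatidate phosphatase that makes diacylglycerol, averaged 192 ± 8.71 CPM in EcRi and 319 ± 24.3 CPM in control (SD, n = 3 each), with log2 fold change -0.73 (adjusted p = 0.000489), which was -0.07 and not called without TMM. Reads in 10.9% of its exon bases could also come from kermit on the same strand. The gene mdy (midway), the diacylglycerol acyltransferase that completes triglyceride, averaged 13.3 ± 0.489 CPM in EcRi and 17.7 ± 2.70 CPM in control, a log2 fold change of -0.40 (adjusted p = 0.0195) that turned to 0.24 without TMM and lost its call without EcRi replicate 1. Per kilobase, mdy was at 4.96 CPM in EcRi and 6.57 CPM in control, the lowest of the assembly genes.

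Of the 8 beta-oxidation genes, whd and Mcad rose and 6 fell, and 4 of those 6 changed sign without TMM. The gene whd (withered, carnitine palmitoyltransferase 1, FBgn0261862, chromosome 2R from 10469473 to 10478567), the gate through which fatty acids enter mitochondria, had 421, 416 and 518 CPM in EcRi and 164, 104 and 161 CPM in control. Every EcRi library was far above every control library, and whd rose 3.16-fold (log2 fold change 1.66, SE 0.20, adjusted p = 0.000262). Of its exon bases, 11.1% are shared with genes on the other strand. Per kilobase it ranked 3 of the 32 genes in EcRi and 16 in control.

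Its partner on the inner membrane moved the other way with TMM. CPT2, carnitine palmitoyltransferase 2, had 49.2, 50.5 and 45.2 CPM in EcRi and 67.0, 65.2 and 78.3 CPM in control, a log2 fold change of -0.54 (SE 0.10, adjusted p = 0.00214) that became 0.12 without TMM. The ratio of whd to CPT2 per kilobase was 6.34, 6.11 and 8.49 within EcRi libraries and 1.82, 1.18 and 1.52 within control libraries, 4.63-fold higher in EcRi by the means, without overlap and independent of scaling.

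Of the 4 genes of the mitochondrial spiral, 3 fell and 1 rose. Mtpalpha and Mtpbeta, the subunits of the trifunctional protein, averaged 154 ± 6.66 and 105 ± 5.09 CPM in EcRi and 239 ± 38.8 and 158 ± 29.3 CPM in control, with log2 fold changes of -0.63 and -0.60 (adjusted p = 0.00374 and 0.00671) that were 0.04 and 0.07 without TMM. The thiolase gene yip2, which acts in the last step of the spiral, averaged 168 ± 6.63 CPM in EcRi and 238 ± 20.7 CPM in control, a log2 fold change of -0.50 (adjusted p = 0.00337), and 0.16 without TMM. Thus all 3 fell in the TMM-scaled data by less than a log2 fold change of 1, and all 3 changed sign with library totals. Mcad, the medium-chain acyl-CoA dehydrogenase, was listed at 1.20 ± 0.0495 CPM in EcRi and 0.728 ± 0.156 CPM in control and rose by a log2 fold change of 0.72 (adjusted p = 0.0195), a call lost without EcRi replicate 1, control replicate 1 or control replicate 2 (log2 fold changes 0.69, 0.65 and 0.57). However, 92.6% of its exon bases are shared with CG7457 on the other strand, which had 14.8 ± 1.23 CPM in EcRi and 11.0 ± 0.983 CPM in control. Strand assignment of reads is not given in the sources used here, so the 2 genes cannot be told apart and the low level of Mcad is uncertain. Exon bases shared with other genes made up 7.35% of Lsd-1, 6.56% of apolpp, 6.45% of ATPCL and at most 3.35% of every other lipid gene not named in this respect.

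Both peroxisomal oxidases fell by more than a log2 fold change of 1. Acox57D-p (chromosome 2R from 21386309 to 21389276) and Acox57D-d, which begins 128 bases after it, are neighbouring acyl-CoA oxidase genes on the same strand, and reads that could come from both copies were not separated here. Acox57D-p had 52.6, 58.2 and 57.4 CPM in EcRi and 187, 172 and 232 CPM in control, and fell 3.52-fold (log2 fold change -1.82, SE 0.13, adjusted p = 2.1e-05). Acox57D-d had 17.2, 11.8 and 20.3 CPM in EcRi and 116, 111 and 170.1 CPM in control, and its fall of 8.06-fold was the largest fall among the 32 genes (log2 fold change -3.01, SE 0.26, adjusted p = 0.000112; -2.33 without TMM). The ratio of the first to the second per kilobase was 2.70, 4.35 and 2.50 within EcRi libraries and 1.43, 1.37 and 1.20 within control libraries. The 5 mitochondrial genes other than whd summed to 6.60 ± 0.548 times the oxidase sum in EcRi and 2.16 ± 0.184 times in control (mean ± SD, n = 3 each), without overlap, so the oxidases were lower relative to them in any scaling.

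Sums within a library set these groups against each other without any scaling factor. The beta-oxidation sum was 0.471, 0.443 and 0.468 of the synthesis sum in EcRi and 0.152, 0.161 and 0.168 in control, or 0.460 ± 0.0155 against 0.160 ± 0.00781 (mean ± SD, n = 3 each). Here whd alone makes up much of the oxidation sum. The mitochondrial genes without whd were 0.301 ± 0.0242 of the fatty acid synthesis sum in EcRi and 0.124 ± 0.00973 in control. Against the subunits of respiratory complex I they were 0.288 ± 0.0278 in EcRi and 0.151 ± 0.00840 in control. These ratios cover only the members. The further mitochondrial oxidation genes described below summed to 843 CPM in EcRi and 1973 CPM in control, and the further peroxisomal genes to 1209 and 4452 CPM. The sums of CPM are dominated by the longest and most abundant genes, and these ratios were described without a test. Some of the single-gene ratios were chosen after their values were seen.

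**Figure D3:**
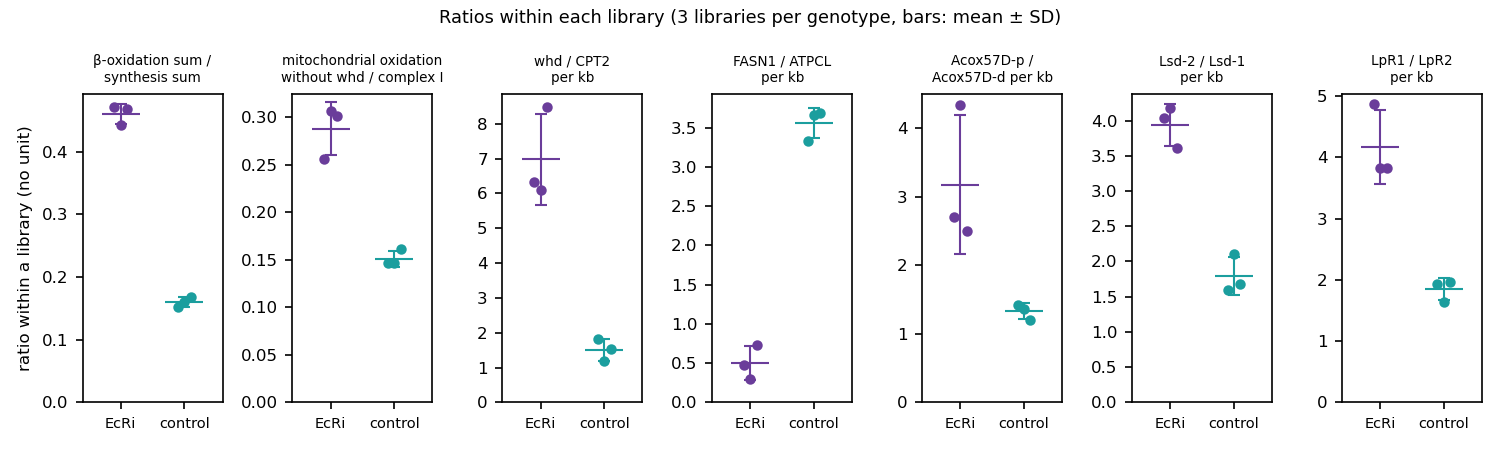
Ratios between lipid genes or gene sums within each library (y axes, no unit), with EcRi (purple) left of control (teal), 1 point per library and bars of mean ± SD (n = 3). The genotypes do not overlap in any of the 7 panels, and FASN1 to ATPCL is the only panel in which EcRi (0.302 to 0.728) lies below control (3.33 to 3.69).

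Of the lipoprotein genes, Mtp showed the clearest rise. Mtp, the microsomal triglyceride transfer protein that loads lipid onto nascent lipoproteins (chromosome 2L from 20919094 to 20922876), had 31.5, 33.9 and 35.0 CPM in EcRi and 10.2, 7.90 and 7.84 CPM in control. It rose 3.87-fold with little spread within EcRi (log2 fold change 1.95, SE 0.12, adjusted p = 1.3e-05). The gene apolpp (apolipophorin, chromosome 4 from 1060969 to 1077273), which encodes the main apolipoprotein of the haemolymph and is known as a product of the fat body, had 72.4, 53.6 and 216 CPM in EcRi and 58.4, 12.1 and 4.88 CPM in control. Control library 1 lay above EcRi library 2, and the other control libraries lay far below all EcRi libraries.

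The log2 fold change of apolpp was 2.18 with a wide error (SE 1.09, adjusted p = 0.142 by edgeR), and the adjusted p was 0.038 with limma-voom, the method of the study. Without control replicate 1 it was 3.74 and passed edgeR's test, and without EcRi replicate 3 it was 1.33. Marker genes of the fat body, tissue that can adhere to a dissected gut, varied in the same libraries. The 8 markers summed to 344, 203 and 962 CPM in EcRi libraries 1 to 3 and to 804, 145 and 58.7 CPM in control libraries 1 to 3, with 1 of 8 higher and 2 lower. Of the lower ones, Adh was near the floor, at 0.0446 CPM in EcRi and 0.216 CPM in control. It had 7 to 75 counts per library, so its direction rests on few counts and on the filter. Fbp1, a receptor for storage protein, had 201, 84.1 and 416 CPM in EcRi and 7.05, 0.948 and 1.07 CPM in control, while Lsp1beta, a storage protein, had 103, 83.8 and 423 CPM in EcRi and 389, 105 and 31.5 CPM in control. The part of adhering fat body in the apolpp values was not tested. Without control 1 and EcRi 3, the libraries of each genotype richest in storage protein genes, the log2 fold change was 2.05 for Mtp and 2.89 for apolpp, both past the test, although Fbp1 still differed between the remaining libraries. The part of fat body in the Mtp values was not tested either. Mtp to apolpp per kilobase was 1.75, 2.54 and 0.653 within EcRi libraries and 0.700, 2.62 and 6.45 within control libraries, and the genotypes overlapped.

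**Figure D4:**
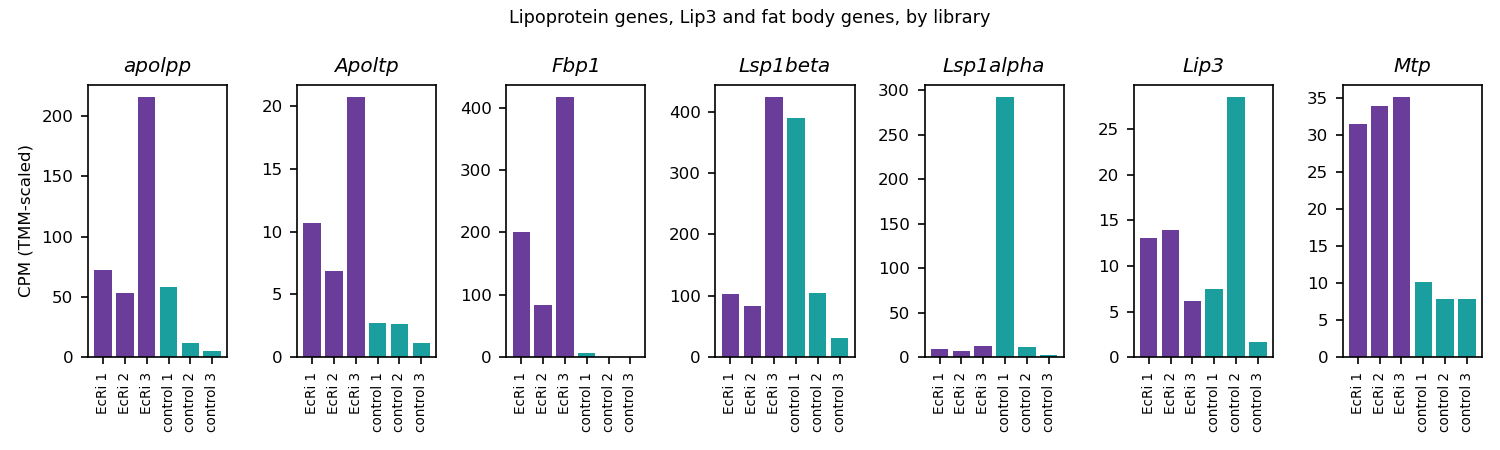
TMM-scaled CPM by library (bars; each panel has its own linear axis from 0) of the lipoprotein genes apolpp, Apoltp and Mtp, the lipase gene Lip3 and the fat body genes Fbp1, Lsp1beta and Lsp1alpha, EcRi (purple) left of control (teal). EcRi library 3 is the highest for apolpp (215.6 CPM), Fbp1 and Lsp1beta, control library 1 is the highest control for apolpp (58.4 CPM), and Mtp is even within each genotype.

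The lipoprotein receptors, neighbours 882 bases apart on chromosome 3R, differed from each other. LpR1, a receptor for lipophorin particles, had 198, 199 and 174 CPM in EcRi and 111, 98.4 and 106 CPM in control, and rose 1.81-fold (log2 fold change 0.86, SE 0.10, adjusted p = 0.000188). LpR2, its paralogue, had 33.8, 43.2 and 37.9 CPM in EcRi and 47.4, 49.9 and 44.7 CPM in control, a log2 fold change of -0.31 (SE 0.11, adjusted p = 0.0373) that turned to 0.34 without TMM. That call rested on narrow margins, as it was lost without any 1 of EcRi libraries 1 and 3 and control libraries 1 to 3 (log2 fold changes of -0.34 to -0.22). LpR1 to LpR2 per kilobase was 4.87, 3.82 and 3.83 within EcRi libraries and 1.94, 1.64 and 1.97 within control libraries.

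The regulators differed by less than a log2 fold change of 1. SREBP, the transcription factor that drives fatty acid synthesis genes in flies, averaged 177 ± 8.67 CPM in EcRi and 217 ± 5.90 CPM in control (SD, n = 3 each), with log2 fold change -0.29 (adjusted p = 0.0205), which turned to 0.36 without TMM and was then called higher. Its call was lost without EcRi replicate 1 or 2 or control replicate 1 or 3 (log2 fold changes of -0.31 to -0.27). Hnf4, a nuclear receptor that directs fatty acid oxidation genes in starved fly larvae, averaged 69.3 ± 5.54 CPM in EcRi and 97.1 ± 4.16 CPM in control, a log2 fold change of -0.49 (adjusted p = 0.00233), and 0.17 without TMM. Both had little spread within a genotype, and the sign of both followed the scaling.

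Within a genotype the lipid genes varied to different degrees. In EcRi the coefficient of variation over the 3 libraries was 2.73% for Hsl, 3.65% for Gpat4 and 3.67% for mdy, and 77.8% for apolpp. In control it was 2.05% for FASN1 and 2.72% for SREBP, and 116% for apolpp and 112% for Lip3. The genes with the widest spread, apolpp and Lip3, were among those that did not pass the test.

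Other genes of the same pathways, 144 in 8 lists with none of the 32 above, were counted in the same way, and 117 of them passed the filter. Of these 37 rose and 57 fell, beside 30.1% and 29.3% of all entries, and the median over the lists was -0.39. Without TMM 55 were higher and 40 lower, beside 57.3% and 12.7% of all entries. The median of the lists was then 0.26, against 0.68 for all entries. All 18 further genes of mitochondrial fatty acid oxidation fell, with a median of -1.19, and without TMM 12 were called lower and 1 higher (median -0.53). Had1, at 0.00675 CPM in EcRi and 0.0981 CPM in control, passed the filter only through control, so its direction was largely set by the filter. Of 9 further peroxisomal genes 8 fell (median -1.66, and without TMM 6 lower and 1 higher), among them Mfe2, the multifunctional enzyme of the peroxisome, with 211 ± 10.3 CPM in EcRi and 665 ± 86.9 CPM in control. Of 16 glycerolipid synthesis genes 2 rose and 9 fell (4 higher and 5 lower without TMM), and of 15 tested genes of elongation and desaturation 5 rose and 7 fell (8 higher and 6 lower without TMM). Among the latter, Elo68beta, at 0.0600 CPM in EcRi and 0.0109 CPM in control, rose but passed the filter only through EcRi.

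Neutral lipases of the wider list went in both directions, with 13 of 21 tested higher and 5 lower, beside 30.1% and 29.3% of all entries. Without TMM 15 were higher and 5 lower, beside 57.3% and 12.7% of all entries. Some of the higher ones were near 0 in control and passed the filter only through EcRi, so their direction was largely set by the filter. These were CG4582 (7.51 CPM in EcRi and 0.00592 CPM in control), CG7367 (0.174 and 0.0181 CPM) and CG6472 (0.168 and 0.0346 CPM). CG6295, a predicted lipase, had 38.8, 4.41 and 35.4 CPM in EcRi and 928, 1160.3 and 2779.8 CPM in control, the lowest log2 fold change of the lists (-5.95, SE 1.08, adjusted p = 0.00548). CG6277, another predicted lipase, followed with -3.86 (adjusted p = 3.6e-06), and fabp, a fatty acid binding protein, with -3.79 (adjusted p = 1.1e-05). The highest among genes of at least 10 CPM were the predicted lipases CG18641 (4.54) and CG17191 (4.35) and CG5326, a predicted fatty acid elongase (3.84), all with an adjusted p below 0.05. Of 9 tested acid lipases 3 rose and 4 fell (also 3 and 4 without TMM). Of 13 uptake and transport genes 6 rose and 4 fell (9 and 2 without TMM), and of 16 regulators 8 rose and 2 fell (14 and 0 without TMM). These counts stand beside the same shares of all entries. Among the acid lipases that rose, Lip2 (0.192 CPM in EcRi and 0.00168 CPM in control) and CG18530 (0.144 and 0.0416 CPM) likewise passed the filter only through EcRi.

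Respiratory and mitochondrial translation genes fell beside the lipid genes. All 33 tested subunits of complex I fell (median log2 fold change -1.45, and -0.80 without TMM), and 70 of 72 tested mitochondrial ribosomal protein genes fell, with a median of -1.12 (-0.46 without TMM). The TMM-scaled falls of Mtpalpha (-0.63), Mtpbeta (-0.60), yip2 (-0.50) and CPT2 (-0.54) were each smaller in size than all 33 of the complex I falls, which ranged from -2.32 to -0.95. That did not extend to the 18 further genes of mitochondrial fatty acid oxidation. Their median of -1.19 lay within the complex I range, and 11 of them fell past a log2 fold change of 1. Of the lists drawn up for other cell types, 8 of 10 genes listed for trachea rose, summed to 1023 to 1159 CPM in EcRi and 167 to 233 CPM in control. The largest in EcRi were serp (363 CPM, and 39.8 CPM in control) and verm (281 and 38.7 CPM). Neither btl (log2 fold change 0.18, adjusted p = 0.409) nor dysf (-0.26, adjusted p = 0.402) passed the test. Whether the genes of this list are specific to trachea in whole intestines was not tested. In muscle 8 of 10 genes fell, summed to 944 to 1151 CPM in EcRi and 2766 to 3323 CPM in control, while Act79B rose (0.92) and sls was not called (0.21). Of 5 Malpighian tubule genes 1 rose and 3 fell, and of 8 enteroendocrine genes 2 fell. All 7 haemocyte markers were detected, and none passed the test. The part of these tissues in the lipid gene values was not tested.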

How the data were processed

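RNA from whole larval intestines was sequenced as 3 EcRi and 3 control libraries, with a SMARTer kit. The labels name a Qiagen RNeasy kit for extraction and the methods name TRIZOL. The authors trimmed reads with Trim Galore!, aligned them to the Ensembl dm6 genome (HISAT2) and assigned them to features (featureCounts, on Galaxy), in versions not given in the sources used here, and deposited raw counts per gene or transposable element, without normalization. The 2 deposited tables are identical, 1 was used, and no column of values was left out.

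The tests were run in edgeR 4.0.16 under R 4.3.3 (filterByExpr, TMM, robust quasi-likelihood test, Benjamini-Hochberg threshold 0.05 over 12193 entries), where the study names limma-voom. The SE of each estimate was derived from it and its F statistic. Ratios use CPM per kilobase of merged exons in the BDGP6 annotation, or sums of CPM. At 200890663 to 246255664 counts per library, 3 counts correspond to 0.0122 to 0.0149 CPM, which covers counting error only. Members and gene lists were chosen with earlier results of these data known. Values of every library are given for members past a log2 fold change of 1 at 1 CPM or more, for their paralogues, and for others chosen after their values were seen, and 3 genes at each end of the wider lists are named where they reach 10 CPM.

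Alternatives were DESeq2 1.42.0, limma-voom (limma 3.58.1), RLE size factors, library totals, no filter, at least 10 counts in every library, genes only, a block of replicate number, omission of each library, a threshold of 0.01, and glmTreat with a log2 fold change of 1 as the null bound. Totals without the 100 most abundant entries, and leaving out control 1 with EcRi 3, were chosen after seeing the data. On simulated counts with 200 changed entries among 12193, 57.3% of changes of log2 size 1 and 82.9% of those of size 2 were called, and 0.100% of unchanged entries; there most entries were unchanged, unlike in these data. No 2 libraries of a genotype agreed within sampling noise (chi-square per degree of freedom at least 212).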

Additional observations from a re-analysis of the deposited data

How the results depend on the processing

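Of 544 combinations of a lipid gene and an alternative, 472 kept direction and call, 43 kept direction and lost the call, 9 gained it and 20 turned direction. With library totals and no TMM, 6982 entries were higher and 1546 lower, in place of 3676 and 3574, and with totals taken without the 100 most abundant entries (chosen after seeing the data) 5618 were higher and 2290 lower, and the median over all entries was 0.39. Of the lipid genes, 10 were higher and 10 lower without TMM, and 8 and 11 without the most abundant entries. The log2 fold changes that turned without TMM were Lip3 0.39, bmm 0.48, mdy 0.24, CPT2 0.12, Mtpalpha 0.038, Mtpbeta 0.073, yip2 0.16, LpR2 0.34, SREBP 0.36 and Hnf4 0.17. Without the most abundant entries, Lip3 (0.14), bmm (0.19), LpR2 (0.050) and SREBP (0.065) turned. These shifts follow from the scaling itself.

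The group medians under library totals, then without the most abundant entries, were 0.59 and 0.30 for lipases, -0.68 and -0.99 for droplet coats, -0.79 and -1.10 for synthesis, 0.10 and -0.20 for beta-oxidation, 2.06 and 1.76 for lipoproteins, and 0.27 and -0.030 for regulators. The lipase median of -0.05 was also 0.00405 with at least 10 counts in every library and 0.29 with limma-voom, where Lip3 was 0.51; the cause was not tested. Tested against a log2 fold change of 1, 1320 entries were higher and 1120 lower, with 3 and 9 of the lipid genes and 14 and 27 of the wider lists, fewer because that threshold is stricter.

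With each library left out in turn, 3278 to 3486 entries were higher and 3215 to 3416 lower, and 5 to 6 lipid genes were higher and 17 to 20 lower. Without control 1 and EcRi 3 together (chosen after seeing the data), 3123 entries were higher and 3072 lower, and the lipoprotein median was 1.50. With 1 library left out the medians ranged over -0.13 to 0.45 for lipases, -1.51 to -1.32 for synthesis and 1.12 to 1.47 for lipoproteins, and the single genes that turned ranged over -0.70 to 1.26 for Lip3, -0.043 to 0.14 for Lip4 and -0.27 to 0.24 for ATPCL. Without EcRi replicate 3, bmm was called lower (-0.35).

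Deviations of same-numbered libraries correlated at -0.06, 0.04 and -0.06, so the values showed no pairing by replicate number. Such correlations cannot show whether same-numbered libraries were prepared together. With the replicate block, 3328 entries were higher and 3327 lower, with 6 and 19 lipid genes, SREBP lost its call (-0.29, adjusted p = 0.0590), Lip3 was 0.55 and the lipase median 0.31.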

Other observations

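The following genes of the wider lists were picked out after their values were seen, and are given as values. Genes whose products process SREBP were higher in EcRi while SREBP itself and most synthesis genes were lower in the TMM-scaled data. SCAP, the escort of SREBP, had 49.8 ± 4.97 CPM in EcRi and 39.0 ± 4.51 CPM in control (SD, n = 3 each; log2 fold change 0.35, adjusted p = 0.0303 by edgeR). The proteases S1P and S2P had log2 fold changes of 0.55 (adjusted p = 0.00342) and 0.57 (adjusted p = 0.00114). Without TMM the values of S1P and S2P were 1.20 and 1.22, and SCAP kept its direction (adjusted p = 0.000867).

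AkhR, the receptor of adipokinetic hormone, which is known from the fat body, had 2.79, 2.41 and 5.51 CPM in EcRi and 0.398, 0.337 and 0.0634 CPM in control (log2 fold change 3.73, adjusted p = 0.00404). The transcription factor gene foxo was at 84.0 ± 18.1 CPM in EcRi and 39.0 ± 2.54 CPM in control (log2 fold change 1.11, adjusted p = 0.00057), whereas sug fell (-0.72, adjusted p = 0.00769), and srl fell with TMM (-0.61, adjusted p = 0.00395) but was at 0.03 without it. Apoltp, a lipid transfer particle protein known from the fat body, had 10.7, 6.85 and 20.7 CPM in EcRi and 2.70, 2.66 and 1.13 CPM in control (log2 fold change 2.56, adjusted p = 0.00896), and the part of adhering fat body in the AkhR and Apoltp values was not tested. EcRi library 3, the richest EcRi library in storage protein genes, was the highest for both.

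Among genes near Acsl and Gpat4 in function, the acyltransferase gene Agpat3 fell 8.99-fold in EcRi (log2 fold change -3.17, adjusted p = 3.8e-06), bgm, a very long-chain acyl-CoA synthetase, fell 6.52-fold (adjusted p = 2.3e-06), and Seipin, a protein of droplet formation, fell 5.28-fold (adjusted p = 2.1e-05). Jabba, which binds histones to droplets, rose by a log2 fold change of 1.99 (adjusted p = 0.000266), at 10.1 ± 2.90 CPM in EcRi and 2.55 ± 0.400 CPM in control. Beside whd, the carnitine genes colt and CRAT had log2 fold changes of -1.55 and -2.22 (adjusted p = 2.1e-05 and 7.2e-06), and -0.89 and -1.55 without TMM.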
